A study of Homo sapiens with 18 samples.

Results

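EMD, the gene of the nuclear membrane protein emerin, was knocked down in C4-2B prostate cancer cells, and the RNA of these cells was set against that of cells given a scrambled control. The comparison used the 6 C4-2B libraries of a series of 18, with 3 control and 3 knockdown libraries. Its members were all genes of the C4-2B table that passed a filter on low counts, 15801 of 22360 genes. The other 12 libraries hold the same pair of groups in 2 further prostate cancer lines, 22Rv1 and DU145, and were used here for the test of a difference between lines. The names of the DU145 knockdown libraries contain shEMD whereas the protocol describes siRNA for every line, so the agent used in DU145 is uncertain.

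C4-2B is a castration-resistant, bone-metastatic derivative of the LNCaP line, grown here in RPMI medium with fetal bovine serum. Control cells received scrambled siRNA and knockdown cells received siRNA against EMD, both in a lipid reagent, and fresh medium replaced the mix 24 h later. Both groups therefore carry the lipid and a short RNA, and 1 commercial siRNA product was used against EMD. The time of harvest is not stated in the labels. Each group is a triplicate of 1 cell line, and nothing says that the triplicates were separate cultures, so the p-values measure the spread between these libraries, which may be technical. All 10 luminal prostate markers checked were present. Relative to unscaled library totals, their summed level ran from 5777 to 5832 CPM in control and from 5413 to 5471 CPM in knockdown libraries. The sum covers moves both ways, with mean KLK3 at 1480 and 966 CPM and FOLH1 at 1266 and 1724 CPM. On this scale, the 4 of 8 fibroblast and endothelial markers in the table summed to 46.6 to 50.8 CPM in control and 44.8 to 51.7 CPM in knockdown libraries. The 2 of 6 blood markers in the table summed to 4.18 to 6.31 CPM and 2.92 to 3.53 CPM. Every other CPM value below is the count of a gene relative to the scaled total of its library. Of the basal markers, KRT5 and TP63 were not in the table and KRT14 had 2 to 18 reads a library.

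Emerin sits in the inner nuclear membrane, where its LEM domain binds the barrier-to-autointegration factor and through it chromatin, and where it also binds lamins and several gene regulators. It is best known from Emery-Dreifuss muscular dystrophy, which follows from its loss. The genes of cell division, to which many of the changes below belong, are held silent outside the cycle by the DREAM complex and are switched on first by E2F factors, for DNA synthesis, and later by MYBL2 and FOXM1, for mitosis. The tumour suppressor p53 acts against them through its target CDKN1A, which encodes the inhibitor p21.

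EMD itself is a plus-strand gene at chrX:154379197-154381523 in GRCh38. Its level was 67.2, 75.1 and 67.3 CPM in the controls and 8.49, 10.0 and 6.38 CPM in the knockdowns. The groups lay far apart, with every knockdown library below every control library. The log2 fold change was -3.07 ± 0.11 (knockdown over control, ± SE as for all fold changes below, n = 3 libraries per group), with an adjusted p of 3.37e-14 in edgeR's quasi-likelihood test after Benjamini-Hochberg adjustment over all tested genes. Every adjusted p below comes from that test, with a threshold of 0.05, and a gene is said to rise, fall or change only past it.

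Among the 15801 tested genes 3068 rose and 3516 fell, so that 41.7% changed in either direction, 19.4% upward and 22.3% downward. These shares are the background against which the counts of gene groups below are read. They depended on level. Above 100 CPM 25.3% rose and 39.5% fell, and between 0.5 and 2 CPM 9.62% rose and 6.07% fell. The background was not matched to the level of a group, so groups of abundant genes may hold more calls for that reason alone. Most changes were small. Of the genes that changed, 84.1% moved by less than 2-fold, while 459 (2.90% of those tested) rose and 588 (3.72%) fell by at least 2-fold and 92 rose and 186 fell by at least 4-fold. The 2 groups did not overlap for 7986 genes (50.5%). The median log2 fold change of all tested genes was 0.01. Scaling by library totals instead of TMM gave 3871 rises and 2922 falls, which moved the share of rises among changed genes from 46.6% to 57.0% and the median to 0.07 on the log2 scale.

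The library totals lay between 14722733 and 25112148 reads, and the first principal component, with 54.9% of the variance, separated the 2 groups. Beyond counting error, replicates differed by a chi-square of 3.64 to 4.80 per degree of freedom. Mitochondrial reads made up 5.91% to 6.38% of the control and 4.27% to 4.89% of the knockdown libraries, and reads of ribosomal proteins 5.92% to 6.26% and 7.04% to 7.59%. In bulk RNA, fewer cells of a kind (here, for example, cells in division) and less RNA per cell cannot be told apart, and every level below is a share of the RNA of its library.

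**Figure D1:**
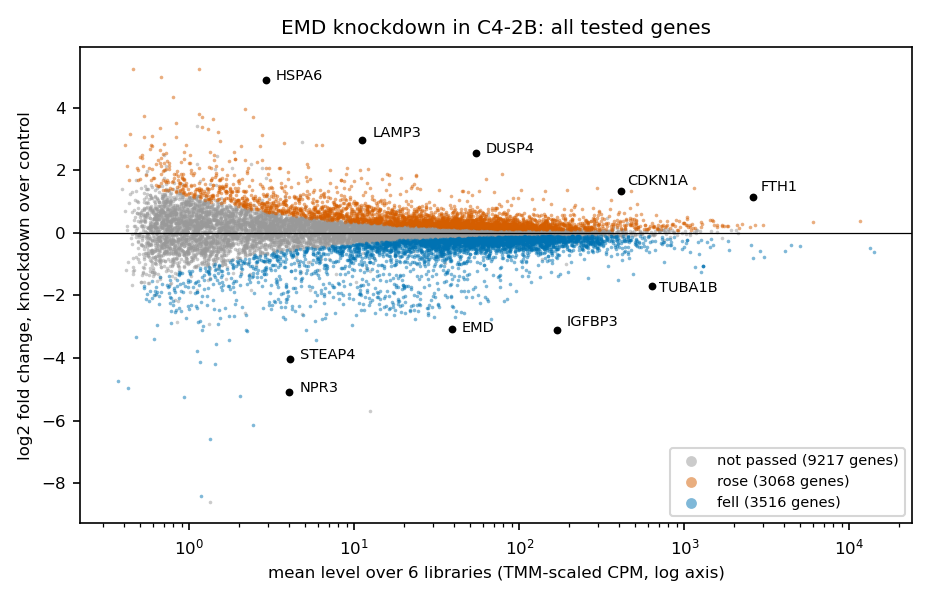
Log2 fold change (knockdown over control) of each of the 15801 tested genes against its mean level over the 6 libraries (CPM, log axis). Orange points rose (3068), blue points fell (3516) and grey points did not pass, and among the points beyond 2-fold 588 fell and 459 rose.

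MYBL2, FOXM1 and E2F1, factors that switch on the cell division genes, fell. MYBL2, the B-Myb factor of the complex that starts mitotic transcription, was at 121, 116 and 114 CPM in the controls and at 18.8, 16.1 and 17.3 CPM in the knockdowns (-2.75 ± 0.07, adjusted p = 1.63e-20). FOXM1, its partner at mitotic promoters, went from 117 ± 3.54 to 35.7 ± 0.70 CPM (mean ± SD, -1.72 ± 0.06). E2F1, which drives entry into DNA synthesis, went from 54.6 ± 4.01 to 22.0 ± 1.91 CPM (-1.31 ± 0.08). The libraries of the 2 groups did not overlap for any of these factors. Of the 20 E2F, RB and DREAM regulators tested, 11 fell and 0 rose, with a median of -0.35, with library totals 10 fell and 2 rose, and without knockdown 1 there was 1 rise. The falls took in E2F2 (-1.89 ± 0.20), E2F7 and E2F8, which are themselves made during S phase. E2F3 (0.08 ± 0.09, adjusted p = 0.533) and the repressive E2F4 (-0.05 ± 0.07, adjusted p = 0.639) did not pass.

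**Figure D2:**
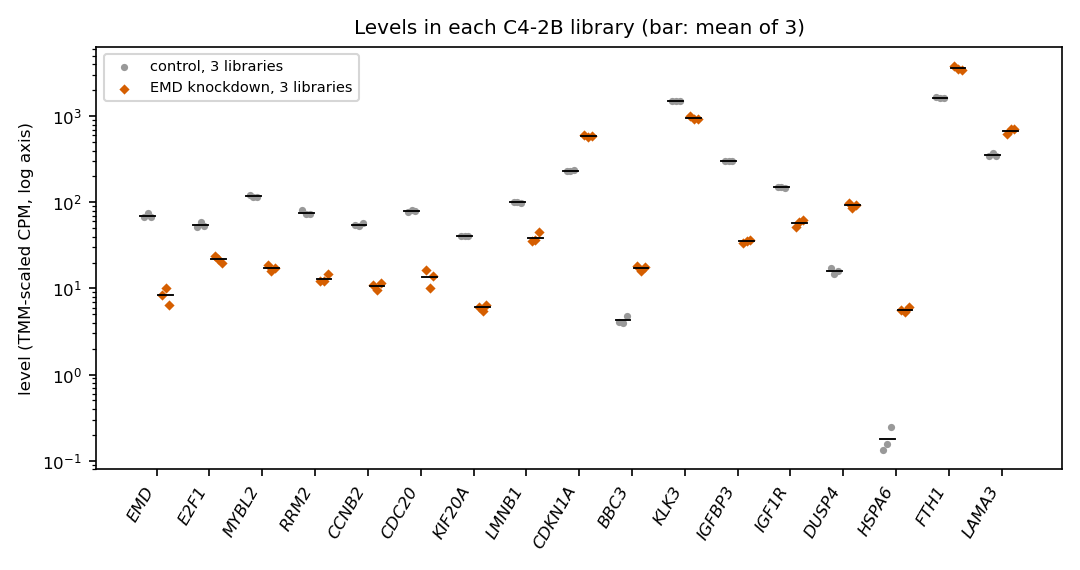
Level (CPM, log axis) of 17 genes in each of the 3 control libraries (grey circles) and 3 knockdown libraries (orange diamonds) of C4-2B, with a bar at the mean of each group. The groups are apart for each gene shown, from EMD at the left to LAMA3 at the right, and levels are not comparable between genes because they are not divided by gene length.

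Most genes that prepare and copy DNA fell. Of 23 genes of origin licensing and the replicative helicase, 20 fell and 0 rose (median -1.02), of 25 genes of the replication fork 23 fell and 0 rose (median -0.86), and of 12 genes of deoxynucleotide supply 10 fell and 1 rose (median -0.75). CDC45, which joins the MCM ring to form the working helicase, had the lowest fold change of the first group, from 27.8, 24.5 and 27.8 CPM to 4.92, 3.75 and 4.68 CPM (-2.59 ± 0.13). GINS2 (-1.94 ± 0.14) and MCM10 (-2.01 ± 0.13), which fire the origin, and ORC1 (-1.92 ± 0.19), the cycling subunit of the origin recognition complex, fell as well. The subunits ORC2 (-0.12 ± 0.09), ORC4 (0.07 ± 0.07) and ORC5 did not pass. At the fork, CLSPN, the adaptor that carries the checkpoint signal, fell (-2.20 ± 0.17) and the sliding clamp PCNA (-0.74 ± 0.06). The catalytic subunits POLE (-0.14 ± 0.08, adjusted p = 0.150) and POLD1 (-0.07 ± 0.07, adjusted p = 0.424) did not pass, and their control and knockdown libraries overlapped. Without knockdown 3, POLE passed as a fall (adjusted p = 0.0259).

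The ribonucleotide reductase subunits parted. RRM2, the S-phase subunit, went from 80.5, 73.1 and 72.7 CPM in the controls to 12.1, 12.1 and 14.5 CPM in the knockdowns (-2.54 ± 0.08). RRM2B, the subunit that p53 induces, went the other way, from 73.3, 72.2 and 68.9 CPM to 112, 101 and 96.9 CPM (0.53 ± 0.06, adjusted p = 2.11e-08). For both genes the 3 knockdown libraries lay on one side of the 3 controls. Thymidine kinase TK1 fell (-1.87 ± 0.07) and thymidylate synthase TYMS (-1.41 ± 0.07).

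DNA repair by homologous recombination and the Fanconi pathway followed, with 21 of 28 genes lower, 2 higher and a median of -1.06. EXO1, a nuclease that resects broken ends, fell from 11.6 ± 0.81 to 1.89 ± 0.40 CPM (-2.60 ± 0.19). The helicase BLM (-2.33 ± 0.21) and FANCD2 (-1.66 ± 0.10) fell as well. The 2 genes that rose were BARD1 (0.47 ± 0.07, adjusted p = 4.16e-06) and the ubiquitin ligase FANCL (0.46 ± 0.16, adjusted p = 0.0265), and FANCL lost its call without control 3 (adjusted p = 0.167) or knockdown 3 (adjusted p = 0.181). Of the 14 genes of chromatin assembly and DNA methylation 9 fell and 1 rose (median -0.41). The histone chaperone ASF1B fell (-2.32 ± 0.11) and UHRF1, which guides maintenance methylation, fell too (-1.69 ± 0.10), whereas the de novo methyltransferase DNMT3A rose by 0.49 ± 0.08.

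All 13 tested mitotic kinases and passenger complex genes fell (median -2.04), as did 28 of 29 genes of spindle motors and cytokinesis (median -2.04), 30 of 33 of the kinetochore and centromere (median -1.91) and 9 of 10 of the spindle checkpoint (median -1.87). The spindle pole organizer NUMA1 was the 1 member of these 4 groups that rose (0.24 ± 0.04), and with library totals 1 checkpoint gene rose as well. PLK1, the kinase that drives spindle formation, was at 34.3, 46.6 and 44.4 CPM in the controls and 7.42, 8.05 and 9.90 CPM in the knockdowns (-2.31 ± 0.13). KIF20A, a motor of the central spindle, had 40.9, 40.6 and 41.0 CPM against 6.13, 5.48 and 6.44 CPM (-2.76 ± 0.10). CDC20, which turns on the anaphase-promoting complex, had 77.8, 80.9 and 78.7 CPM against 16.3, 10.0 and 14.0 CPM (-2.57 ± 0.12, adjusted p = 1.80e-08). For these 3 genes every control library lay above every knockdown library, by far more than the spread within either group.

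The falls differed in size within each mitotic group. In the kinetochore, SPC25 (-2.82 ± 0.21), CENPE (-2.56 ± 0.09) and NDC80 (-2.46 ± 0.12) had the lowest values, while MIS12 (0.01 ± 0.08, adjusted p = 0.965) and CENPT did not pass. Of 26 genes of cohesin and condensin 23 fell and 1 rose (median -0.90), and 0 rose without control 3 or without knockdown 2. Their range was wide, from -2.49 to 0.17. Deep falls were those of the cohesin protector SGO1 (-2.49 ± 0.25), securin PTTG1 (-2.41 ± 0.09) and separase ESPL1 (-2.33 ± 0.12). The core ring subunit SMC1A fell by less (-0.30 ± 0.04). In the anaphase-promoting complex 8 of 19 genes fell and 1 rose (median -0.11), and with library totals 7 fell and 4 rose. Its activator CDC20 and its ubiquitin carriers UBE2C (-2.32 ± 0.11) and UBE2S made the deepest falls, and the scaffold ANAPC1 did not pass (0.02 ± 0.06, adjusted p = 0.844).

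Most cyclins and cyclin-dependent kinases fell. Of 16 tested, 13 fell and 0 rose (median -0.75), and 13 fell and 2 rose with library totals, while 1 rose without control 2 or without knockdown 2. CCNA2 (-2.53 ± 0.11) and CCNB2 (-2.37 ± 0.09), the cyclins of S phase and mitosis, fell most among the cyclins, and CCNE2 of the G1/S step fell (-1.31 ± 0.18). The G1 cyclin CCND1 was at 210, 210 and 220 CPM in the controls and 224, 221 and 230 CPM in the knockdowns (0.08 ± 0.04, adjusted p = 0.130, or 0.0113 with library totals), and CCNE1 did not pass either (0.09 ± 0.13). Of 14 tubulins, from which the spindle is built, 8 fell and 2 rose (median -0.50). TUBA1B went from 973 ± 22.3 to 300 ± 8.77 CPM (-1.70 ± 0.04) and TUBB from 698 ± 25.5 to 280 ± 13.2 CPM (-1.32 ± 0.04). TUBB4A (1.66 ± 0.53) and TUBB6 rose, calls that TUBB4A lost without control 2, knockdown 1 or knockdown 2 and TUBB6 without control 1, control 3, knockdown 1 or knockdown 2. Tubulin genes are close copies of each other, so the way reads were shared between them is uncertain. The chromatin proteins HMGB2 (-2.26 ± 0.08), HMGN2 (-1.20 ± 0.05) and HMGB1 (-1.08 ± 0.04) fell too. Of 14 tested histone genes 5 rose and 3 fell (median 0.22), again among near-identical copies.

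The promoters of these genes were searched for the letters that their regulators are known to read. In the promoter table, 110 of the 130 tested members of the 6 mitosis groups and 90 of the 102 members of the 5 replication and repair groups had an entry with 250 bases before and 50 after the start. The cell cycle homology region (CHR), searched on both strands as TTTGAA, stood in 49.1% of the mitosis promoters, against 9.37% of the promoters of all tested protein-coding genes and 15.4% of all 27303 promoters. CCAAT, the box that the factor NF-Y binds, stood in 60.9%, against 37.3% and 35.7%. The 2 occurred together in 32.7%, against 4.02% and 6.08%. The replication and repair promoters held the CHR in 6.67% and CCAAT in 51.1%. They held an E2F core (TTTGGCGC, TTTCCCGC, TTTCGCGC or TTTGCCGC) in 31.1%, against 5.44% of the promoters of tested coding genes and 3.33% of all. Of the mitosis promoters 10.9% held an E2F core. With TTTAAA counted as well, the CHR stood in 56.4% of mitosis, 11.1% of replication and repair and 15.2% of tested coding promoters. Of all promoters 24.3% held this wider form. Each motif was searched by itself on both strands, so that matches of different motifs may share a base. A match is a description of the letters and not a bound site.

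Below are the 150 bases before the start of 4 mitosis genes, 3 replication genes and the regulator E2F1. E2F1 was counted above among the regulators and CCNB2 among the cyclins. The sequences are shown because their genes fell together and because the arrangement of the motifs differs between them. They are RefSeq sequences of GRCh38.p14, written from 5′ to 3′ on the strand of the gene, with the CHR, the CCAAT boxes and the E2F cores (or their complements) in capitals. CCNB2 lies at chr15:59104996-59105145 (plus), CDC20 at chr1:43358831-43358980 (plus), PLK1 at chr16:23678739-23678888 (plus) and BUB1B at chr15:40160919-40161068 (plus). E2F1 lies at chr20:33686386-33686535 (minus), PCNA at chr20:5126623-5126772 (minus), GINS2 at chr16:85688955-85689104 (minus) and RRM2 at chr2:10122589-10122738 (plus).
CCNB2: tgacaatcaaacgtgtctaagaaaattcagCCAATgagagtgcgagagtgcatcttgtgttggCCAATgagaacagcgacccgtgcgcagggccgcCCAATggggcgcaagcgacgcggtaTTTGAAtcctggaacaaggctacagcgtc
CDC20: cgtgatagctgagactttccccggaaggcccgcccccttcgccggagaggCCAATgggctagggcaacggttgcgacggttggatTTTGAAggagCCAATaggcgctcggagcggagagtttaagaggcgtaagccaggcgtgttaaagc
PLK1: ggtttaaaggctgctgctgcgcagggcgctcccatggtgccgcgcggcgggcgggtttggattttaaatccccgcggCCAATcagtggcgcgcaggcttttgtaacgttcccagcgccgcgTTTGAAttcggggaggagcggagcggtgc
BUB1B: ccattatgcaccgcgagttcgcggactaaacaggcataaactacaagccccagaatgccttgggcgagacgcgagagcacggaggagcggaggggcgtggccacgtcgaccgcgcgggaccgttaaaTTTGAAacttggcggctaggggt
E2F1: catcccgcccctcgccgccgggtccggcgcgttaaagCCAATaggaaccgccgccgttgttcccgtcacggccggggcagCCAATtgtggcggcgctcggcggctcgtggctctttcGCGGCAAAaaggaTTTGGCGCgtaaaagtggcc
PCNA: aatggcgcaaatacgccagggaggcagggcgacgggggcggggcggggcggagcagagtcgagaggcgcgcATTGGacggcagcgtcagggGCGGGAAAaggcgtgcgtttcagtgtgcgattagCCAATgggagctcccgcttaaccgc
GINS2: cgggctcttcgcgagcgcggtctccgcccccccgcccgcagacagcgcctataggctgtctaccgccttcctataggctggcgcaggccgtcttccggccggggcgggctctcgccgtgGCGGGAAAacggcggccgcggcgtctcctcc
RRM2: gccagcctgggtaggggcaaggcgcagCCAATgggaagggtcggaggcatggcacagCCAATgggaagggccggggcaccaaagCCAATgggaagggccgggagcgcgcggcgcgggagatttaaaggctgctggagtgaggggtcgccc
CCNB2 has 3 CCAAT boxes ahead of 1 CHR, CDC20 has 1 CCAAT box on either side of its CHR, and BUB1B has a CHR without CCAAT in these bases. E2F1, PCNA and GINS2 hold E2F cores and no CHR, and RRM2 holds 3 CCAAT boxes with neither in the bases shown. The wider CHR form TTTAAA, left in small letters, stands in PLK1 and RRM2.

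Most targets of p53 rose. Of 36 tested, 30 rose, 2 fell and 4 did not pass, with a median of 0.54 on the log2 scale. CDKN1A, the gene of p21, was at 233, 231 and 235 CPM in the controls and at 600, 572 and 590 CPM in the knockdowns (1.34 ± 0.04, adjusted p = 2.02e-19). BBC3, which encodes the death protein PUMA, went from 4.10, 3.93 and 4.73 CPM to 18.1, 15.9 and 17.7 CPM (2.01 ± 0.14). No knockdown library of either gene came near the controls. The antiproliferative gene BTG2 rose by 1.34 ± 0.07, the mitophagy gene SPATA18 by 1.35 ± 0.09 and PHLDA3, an inhibitor of AKT signalling, from 28.2 ± 0.55 to 69.5 ± 3.62 CPM. MDM2, which encodes the ligase that degrades p53, rose from 173 ± 3.3 to 254 ± 8.39 CPM (0.55 ± 0.04), and the repair genes XPC (0.73 ± 0.05) and DDB2 (0.42 ± 0.08) rose as well.

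The 2 p53 targets that fell were both genes of cell death, PMAIP1 (-0.37 ± 0.11, adjusted p = 0.0139, with overlapping libraries) and the death receptor TNFRSF10B (-0.23 ± 0.04). PMAIP1 lost its call without control 3 (adjusted p = 0.0821) or knockdown 2 (adjusted p = 0.0889). Across the BCL2 family and the caspases, 4 of 24 tested genes rose and 5 fell, with a median of 0.00, a share of 37.5% against 41.7% of all genes. With library totals 4 rose and 3 fell, and 3 fell without control 3 or without knockdown 2. BAX, the pore-forming executioner, rose by 0.45 ± 0.08 beside BBC3. Of the survival genes MCL1 did not pass (0.05 ± 0.04, adjusted p = 0.381) and BCL2L1 fell (-0.15 ± 0.04, adjusted p = 0.00774, or 0.0745 with library totals), and none of the tested caspases passed. Among 8 cyclin-dependent kinase inhibitors 2 rose and 3 fell. Beside CDKN1A, CDKN1C rose by 0.38 ± 0.15 (adjusted p = 0.0395), CDKN1B did not pass (-0.01 ± 0.06), and CDKN2C (-1.51 ± 0.15), CDKN2D and the phosphatase CDKN3 (-2.03 ± 0.11) fell. CDKN1C lost its call in 4 of the 6 fits that left out a library, with an adjusted p of 0.136 at most.

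**Figure D3:**
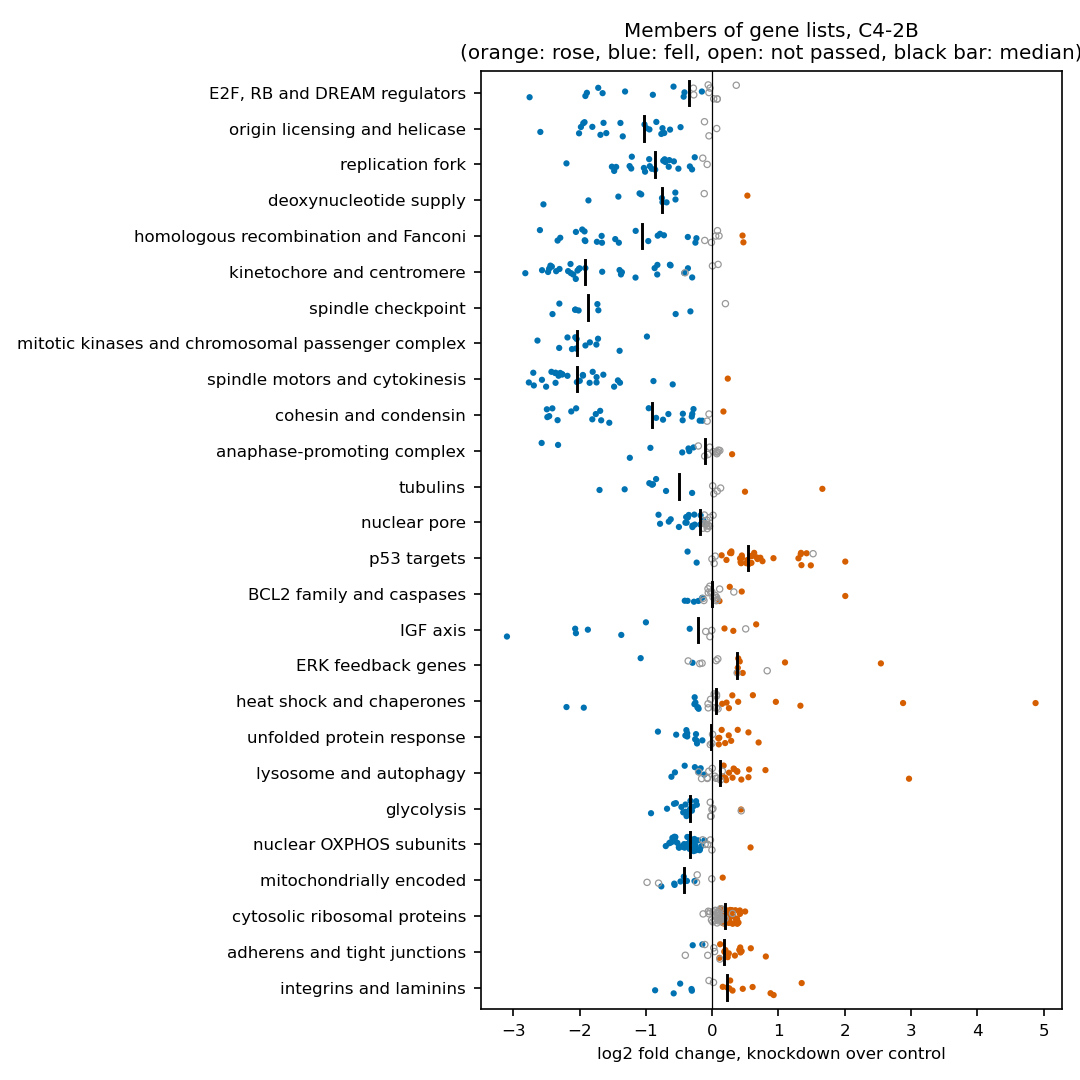
Log2 fold change (knockdown over control) of each tested member of 26 gene groups in C4-2B. Orange points rose, blue points fell, open points did not pass, and a black bar marks the median of the group, which lies near -2 for the kinetochore, checkpoint, mitotic kinase and spindle motor groups, at 0.54 for p53 targets and close to 0 for the chaperones.

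At the nuclear envelope itself the other LEM-domain genes went both ways. Of the 7 tested genes of this family and its partner BANF1, with EMD and BANF1 included, 3 fell and 2 rose. TMPO, which encodes LAP2, fell (-0.89 ± 0.04) and LEMD3 (-0.31 ± 0.06), while LEMD2 rose from 51.7 ± 0.94 to 70.7 ± 4.35 CPM (0.45 ± 0.06) and ANKLE2 by 0.24 ± 0.06. Their common partner BANF1 was at 107 ± 2.19 and 104 ± 4.45 CPM (-0.04 ± 0.05, adjusted p = 0.584). LMNB1, the gene of lamin B1, was at 101, 100.4 and 97.2 CPM in the controls and 35.8, 36.1 and 44.7 CPM in the knockdowns (-1.36 ± 0.07), and the lamin B receptor LBR fell (-0.31 ± 0.04). Among 10 genes of lamins and their processing 5 fell and 1 rose (median -0.13), or 4 and 2 with library totals. LMNA was the 1 that rose (0.13 ± 0.05, adjusted p = 0.0392), with overlapping libraries, and it lost that call without control 1, control 2, knockdown 1 or knockdown 3.

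Of 30 nuclear pore genes 18 fell and 0 rose (median -0.18), and the falls were small. The membrane ring subunit NDC1 was at 113, 113 and 107 CPM in the controls and 63.1, 67.0 and 62.5 CPM in the knockdowns (-0.79 ± 0.05). NUP35 (-0.81 ± 0.14), NUP107 (-0.65 ± 0.09) and NUP93 (-0.50 ± 0.08), subunits of the scaffold, were lower and POM121 (-0.03 ± 0.04) did not pass. Of the 12 genes that link the envelope to the cytoskeleton or serve as torsins, 2 rose and 2 fell, and 1 rose without control 1, control 3, knockdown 1 or knockdown 3. SUN2, which spans the inner membrane, rose by 0.22 ± 0.06 and the torsin cofactor TOR1AIP1 fell (-0.50 ± 0.05). The 18 tested neighbours of EMD on Xq28 showed 5 rises and 6 falls (median -0.03), or 6 and 4 with library totals, and 3 rises without control 3 or without knockdown 3. DNASE1L1 fell (-0.37 ± 0.08) and RPL10 rose by 0.50 ± 0.04.

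Most target genes of the androgen receptor, the hormone receptor that drives prostate epithelium, fell. Of 37 tested, 27 fell and 7 rose (median -0.56), so that 73.0% fell against 22.3% of all tested genes. The kallikrein KLK3, which encodes prostate-specific antigen, was at 1522, 1505 and 1501 CPM in the controls and 999, 933 and 919 CPM in the knockdowns (-0.67 ± 0.04). KLK2 (-0.58 ± 0.04), its neighbour, and the membrane protease TMPRSS2 (-0.56 ± 0.04) fell alike. Larger falls were those of the cation channel TRPM8, from 30.8 ± 0.79 to 9.43 ± 0.45 CPM (-1.71 ± 0.10), the prostaglandin-degrading enzyme HPGD (-1.77 ± 0.22) and the metalloreductase STEAP4, from 7.67, 7.81 and 7.72 CPM to 0.404, 0.503 and 0.486 CPM (-4.03 ± 0.26). Among the 7 that rose were the kallikrein KLK4 (0.35 ± 0.05) and prostatic acid phosphatase ACP3 (0.76 ± 0.13). Of 17 genes of the receptor and its lineage cofactors 8 fell and 4 rose (median -0.14), with FOXA1 higher by 0.17 ± 0.04 and HOXB13 lower (-0.22 ± 0.04). Of the surface antigens used as drug targets in this cancer, 5 of 12 tested rose and 1 fell (median 0.06), and 2 fell without knockdown 3. FOLH1, the gene of prostate-specific membrane antigen, went from 1289, 1293 and 1289 CPM to 1732, 1684 and 1673 CPM (0.39 ± 0.03), and NECTIN4 rose by 0.52 ± 0.15.

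The genes that changed were 2 of 5 tested keratins and made up 14.3% of the neuroendocrine, 53.8% of the stem-like and 44.4% of the mesenchymal genes, against 41.7% of all tested genes, and the counts of these small groups are given as values and not as a result about them. Of 5 keratins tested, KRT18 rose (0.13 ± 0.04, a call lost without control 2, control 3 or knockdown 3), KRT19 fell (-0.87 ± 0.08; 2 keratins fell without control 2) and KRT8 did not pass (-0.03 ± 0.04). Of 7 neuroendocrine and neuronal genes tested NCAM2, a neural adhesion molecule, rose from 40.2 ± 2.51 to 100.1 ± 5.28 CPM (1.32 ± 0.06). ENO2 (0.44 ± 0.22, adjusted p = 0.113), SYP and DLL3 did not pass, and 2 genes of the group rose without control 1 or with library totals. In the fit over all 18 libraries ENO2 (adjusted p = 0.00886) passed as a rise and SYP (-0.56, adjusted p = 0.0356) as a fall. Of 12 genes of the group compared there, 3 rose and 1 fell. Of 13 stem-like and plasticity genes 5 fell and 2 rose (median -0.12). SOX9 went from 40.8 ± 2.07 to 14.8 ± 1.11 CPM (-1.46 ± 0.09) and ALDH1A1 from 248 ± 6.09 to 94.5 ± 1.56 CPM (-1.39 ± 0.04), and NOTCH1 rose by 0.59 ± 0.05. Of 9 mesenchymal genes 2 rose and 2 fell, against 1 and 4 without control 1 and 1 rise without knockdown 2. SNAI2, a repressor of E-cadherin, fell (-1.31 ± 0.16) and E-cadherin itself, CDH1, rose by 0.25 ± 0.04.

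The insulin-like growth factor (IGF) axis, in which binding proteins hold the ligand and IGF1R passes the signal on through IRS1, lost several of its members. Of 14 tested, 7 fell and 3 rose (median -0.22). IGFBP3, on chromosome 7, was at 303, 301 and 299 CPM in the controls and 33.9, 35.2 and 36.6 CPM in the knockdowns (-3.09 ± 0.05, adjusted p = 6.78e-25). The ligand IGF1 went from 97.6, 99.5 and 104 CPM to 22.7, 26.5 and 23.0 CPM (-2.05 ± 0.07) and the receptor IGF1R from 149, 152 and 147 CPM to 51.5, 59.3 and 62.0 CPM (-1.37 ± 0.06). In all 3 genes the groups were apart and the replicates close together. IGFBP5 fell (-1.87 ± 0.13), and IRS1 fell from 23.7, 24.0 and 24.2 CPM to 12.4, 13.3 and 10.3 CPM, whereas the adaptor GRB10, an inhibitor of this receptor, rose by 0.66 ± 0.04 and the scavenger receptor IGF2R by 0.32 ± 0.04.

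Of 16 feedback genes of ERK signalling 7 rose and 2 fell (median 0.38), and 1 fell without knockdown 2. The phosphatase DUSP4 stood out with 17.3, 14.6 and 16.0 CPM in the controls and 97.3, 86.8 and 94.3 CPM in the knockdowns (2.55 ± 0.07, adjusted p = 3.56e-19). DUSP2, a related phosphatase, fell (-1.08 ± 0.07), and SPRY2 and SPRY4, the Sprouty inhibitors, did not pass. Among 17 immediate-early factors 6 rose and 2 fell (median 0.13). JUND rose from 138 ± 16.4 to 234 ± 16.1 CPM (0.76 ± 0.10, adjusted p = 0.00186) and FOS, at 0.83 ± 0.43 and 2.34 ± 0.72 CPM, rose by 1.47 ± 0.43, a call that was lost without knockdown 2 (adjusted p = 0.0642).

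In the TGF-beta and bone morphogenetic protein pathway, 11 of 27 genes fell and 8 rose (median 0.05). The ligand TGFB2 went from 13.1 ± 0.72 to 2.23 ± 0.97 CPM (-2.57 ± 0.22), and the inhibitor SMAD6 fell (-0.87 ± 0.08). The 4 ID genes, which encode inhibitors of differentiation factors and are known targets of bone morphogenetic proteins, all fell. ID1 was at 34.5, 40.7 and 39.1 CPM in the controls and 10.3, 9.22 and 11.4 CPM in the knockdowns (-1.89 ± 0.10), and ID3 fell (-1.29 ± 0.08). BMP7 rose from 2.32 ± 0.505 to 5.24 ± 1.51 CPM (1.18 ± 0.26). WNT genes (3 rose and 7 fell of 19, and 1 rose without control 3 or without knockdown 2) included lower WNT5A (-1.12 ± 0.17) and FZD1 (-0.79 ± 0.06), and YAP and TEAD genes (2 rose and 6 fell of 17, or 4 and 6 with library totals) held ANKRD1, at 2.71 ± 0.59 and 0.15 ± 0.15 CPM.

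Chaperone genes changed in opposite directions. Of 27 tested heat shock and chaperone genes 10 rose and 8 fell (median 0.07), and 14 rose and 7 fell with library totals. HSPA6, the strictly inducible HSP70 gene, lies on chromosome 1 from 161524540 to 161526910. It had a handful of reads in each control, at 0.132, 0.157 and 0.243 CPM and reached 5.60, 5.31 and 6.02 CPM in the knockdowns (4.88 ± 0.36, adjusted p = 3.98e-11), the largest rise among genes with a mean of at least 5 CPM in one group and groups that did not overlap. HSPA1B, another inducible HSP70, went from 263, 275 and 267 CPM to 683, 657 and 685 CPM (1.33 ± 0.04), although its twin HSPA1A was not tested and reads of these near-identical genes cannot be assigned with certainty. The collagen chaperone SERPINH1 rose by 2.88 ± 0.26 and DNAJB1, the HSP40 partner, by 0.61 ± 0.04. The small heat shock genes CRYAB (-2.20 ± 0.27) and HSPB8 (-1.94 ± 0.15) fell, and the factor HSF1 did not pass (0.07 ± 0.05).

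Of the 23 chaperone genes with a promoter entry, 21.7% held a heat shock element of 3 alternating units, searched on both strands, against 0.297% of the promoters of tested coding genes and 0.487% of all. The HSPA6 promoter, shown because its gene had the largest rise under the rule above, lies at chr1:161524390-161524539 (plus, GRCh38.p14, RefSeq) and has the element, here in its complement, in capitals.
HSPA6: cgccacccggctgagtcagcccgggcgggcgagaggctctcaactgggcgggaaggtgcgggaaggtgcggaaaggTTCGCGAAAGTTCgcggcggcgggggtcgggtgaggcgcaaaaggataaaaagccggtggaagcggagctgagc

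Genes of the stress response of the endoplasmic reticulum changed in both directions. In all, 10 of 24 genes of the unfolded protein response rose and 11 fell (median -0.02), and 6 rose without control 2 or without knockdown 3. HSP90B1, the lumenal HSP90, was at 3384, 3254 and 3351 CPM in the controls and 1950, 1838 and 1882 CPM in the knockdowns (-0.82 ± 0.04), and the HSP70 of that compartment, HSPA5, fell (-0.38 ± 0.04). The sensor ERN1 rose by 0.55 ± 0.06, the factor DDIT3 by 0.39 ± 0.05 and PPP1R15A, which restarts translation, by 0.70 ± 0.13. Of 32 ATF4 and amino acid genes 10 rose and 12 fell (median -0.06), with the transporter subunit SLC3A2 higher by 0.62 ± 0.04 and the folate enzyme MTHFD2 lower (-0.60 ± 0.04).

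Ferritin and many lysosomal genes rose. Ferritin heavy chain, FTH1, went from 1662, 1639 and 1617 CPM to 3815, 3535 and 3445 CPM (1.13 ± 0.04), the second largest gain in CPM of any gene, and haem oxygenase HMOX1 rose by 0.84 ± 0.07. Other antioxidant genes fell, among them NQO1 (-0.96 ± 0.05) and TXN (-0.45 ± 0.07), so that 6 of 21 rose and 10 fell. Of 33 lysosome and autophagy genes 15 rose and 7 fell (median 0.13). The lysosomal membrane protein LAMP3 was at 2.12, 3.20 and 2.26 CPM in the controls and 20.8, 21.6 and 17.2 CPM in the knockdowns (2.97 ± 0.17). The autophagy receptor SQSTM1 rose by 0.80 ± 0.04, FLCN by 0.56 ± 0.07 and the protease CTSD by 0.38 ± 0.04, while NPC2 (-0.56 ± 0.07), a cholesterol carrier, and the galactosidase GLA (-0.61 ± 0.11) fell.

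Genes of energy metabolism mostly fell, by small amounts. Of 23 glycolysis genes 16 fell and 1 rose (median -0.33), and of 45 nuclear genes of oxidative phosphorylation 39 fell and 1 rose (median -0.34). The lactate dehydrogenase LDHA was at 578, 555 and 556 CPM in the controls and 365, 347 and 342 CPM in the knockdowns (-0.68 ± 0.04), and phosphofructokinase PFKP fell (-0.92 ± 0.05). The lactate carrier SLC16A1 was the glycolysis member that rose (0.44 ± 0.04). The respiratory subunits COX8A (-0.70 ± 0.05), NDUFA2 (-0.65 ± 0.06) and COX6C (-0.63 ± 0.05) had the lowest values of the second group, and COX7C was its member that rose (0.58 ± 0.10, adjusted p = 0.00807). Of a list of 13 genes of the mitochondrial genome, which does not hold all of its genes, 7 fell and 1 rose (median -0.43). MT-CO2 was at 4043, 3629 and 3808 CPM in the controls and 2485, 2309 and 1957 CPM in the knockdowns (-0.77 ± 0.10), while MT-ND1 rose by 0.16 ± 0.05 (adjusted p = 0.0138). MT-ND1 lost this call without control 2, knockdown 1 or knockdown 2, and in the fit over all 18 libraries (adjusted p = 0.127). The share of mitochondrial reads was lower in every knockdown library than in every control, as given above, and its part in these falls was not tested.

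Ribosomal protein genes rose slightly, in 48 of 78 cases with 0 falls (median 0.20, highest 0.50), and 1 fell without control 2. RPS6 was at 1289, 1239 and 1257 CPM in the controls and 1782, 1617 and 1658 CPM in the knockdowns (0.42 ± 0.04). The translation elongation factors EEF1A1 (0.39 ± 0.04) and EEF2 (0.35 ± 0.03) rose with them. Many of these genes have processed copies in the genome, to which reads may be lost or gained. The nucleolar genes that build ribosomes were mixed, with 5 rises and 9 falls among 32 (median 0.00), or 9 and 7 with library totals, and 3 rises without control 2, knockdown 2 or knockdown 3. TCOF1, the treacle protein of ribosomal RNA synthesis, fell from 70.6 ± 5.6 to 25.3 ± 1.81 CPM (-1.47 ± 0.07) and nucleophosmin NPM1 fell less (-0.30 ± 0.04). Of 32 splicing regulators 17 fell and 6 rose (median -0.13), with HNRNPA2B1 lowest at -0.68 ± 0.04.

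Genes of lipid synthesis held both rises and falls. Of 25 genes of cholesterol synthesis 10 fell and 5 rose (median -0.13), or 3 rose without control 3, with ACAT2 (-0.91 ± 0.09) at the entry to the pathway among the falls. Of 23 fatty acid genes 10 fell and 5 rose (median -0.03), or 9 and 7 with library totals. The factors SREBF1, from 333 ± 11.0 to 522 ± 16.4 CPM (0.65 ± 0.04), and MLXIPL (0.92 ± 0.16) rose together with the synthase FASN (0.32 ± 0.04), and the activating enzyme ACSL3 fell (-0.81 ± 0.04).

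In 3 groups of epithelial contact and matrix more genes rose than fell. Of 22 adherens and tight junction genes 14 rose and 2 fell (median 0.19, or 1 fall with library totals), of 17 integrins and laminins 10 rose and 5 fell (median 0.23), and of 12 matrix proteases and their inhibitors 8 rose and 2 fell (median 0.19). The tight junction gene CLDN4 was at 202, 204 and 199 CPM in the controls and 357, 345 and 360 CPM in the knockdowns (0.81 ± 0.04), and TJP3 (0.58 ± 0.07), OCLN (0.45 ± 0.06) and the desmosomal DSP (0.41 ± 0.04) rose. The laminin chain LAMA3 went from 349, 370 and 347 CPM to 622, 702 and 703 CPM (0.93 ± 0.05). LAMB2 (1.35 ± 0.07) and LAMA5 (0.61 ± 0.05) rose, and LAMB1 (-0.86 ± 0.06), LAMB3 (-0.48 ± 0.14) and LAMC1 (-0.31 ± 0.04) fell. The membrane-bound protease MMP16 rose from 10.2 ± 1.61 to 37.1 ± 1.52 CPM (1.86 ± 0.10). In a group of genes of the factors SRF and MRTF and of the actin cytoskeleton, 11 of 26 fell and 5 rose (median -0.05). Among the falls were ACTB (-0.23 ± 0.03) and the tropomyosin TPM4 (-0.75 ± 0.08).

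Of 27 polycomb genes 7 rose and 8 fell, or 9 and 6 with library totals. The accessory factor PHF19 went from 21.2 ± 0.68 to 8.58 ± 1.22 CPM and the demethylase KDM6B rose by 0.56 ± 0.05. Of 21 genes of H3K9 methylation, HP1 and related chromatin proteins 3 rose and 9 fell, or 6 and 9 with library totals, and 1 rose without knockdown 3. By at least 2-fold 4 of the 21 fell and 0 rose, among them the methyltransferase SUV39H1 (-1.13 ± 0.18). These counts take in the related chromatin proteins, and the lowest value of the group, -2.26, equals that given above for HMGB2. The HP1 gene CBX3 fell by less than 2-fold (-0.56 ± 0.04). Of 31 interferon response genes 6 rose and 5 fell (median -0.13), a share of 35.5% against 41.7% of all genes, and 3 fell and 1 rose by at least 2-fold. OAS3, a sensor of viral RNA, fell (-1.45 ± 0.11) and B2M, the light chain of the antigen-presenting molecule, fell too (-0.62 ± 0.04). Of 17 genes of NF-kB and cytokines 4 rose and 4 fell, 1 each by at least 2-fold, and TNFAIP2 fell from 23.4 ± 0.95 to 4.78 ± 0.70 CPM (-2.28 ± 0.13).

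Over all genes, regardless of group, the 15 largest falls with a mean of at least 5 CPM in one group and no overlap between groups began with NPR3, a clearance receptor for natriuretic peptides, at 7.28, 9.43 and 6.87 CPM in the controls and 0.202, 0.0559 and 0.425 CPM in the knockdowns (-5.09 ± 0.36). RUNX1, a transcription factor, followed STEAP4 and went from 11.3, 10.1 and 10.8 CPM to 1.69, 1.01 and 0.365 CPM (-3.41 ± 0.29). HDGFL3, a growth factor relative, fell (-2.96 ± 0.19) and the developmental factor ATOH8 (-2.76 ± 0.25). UGT1A1, whose exons are shared with its sister genes, also belongs here (-3.11 ± 0.24). Among the 15 largest rises were BCHE, the gene of butyrylcholinesterase, from 1.49 ± 0.51 to 10.2 ± 0.44 CPM (2.80 ± 0.22), the collagen gene COL5A1 (2.06 ± 0.16), the adhesion protein gene PARVA (2.07 ± 0.28) and ADA2, a secreted adenosine deaminase (2.03 ± 0.14).

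Changes also moved with the base composition of the transcripts. Among tested protein-coding genes in the lowest quintile of transcript GC content 37.6% fell and 12.2% rose, and in the highest quintile 13.8% fell and 774 of 2577 rose. The median deviation from the control mean was -0.11, -0.12 and -0.11 on the log2 scale for the 3 knockdown libraries in the lowest quintile and 0.10, 0.09 and 0.11 in the highest, against -0.02 to 0.02 for the controls in these quintiles. All 3 knockdown libraries thus climbed with GC content by far more than any control. The mitosis groups are of low GC content, with medians of 40.8% to 46.8% against 48.7% over tested coding genes. The part of GC content in the list medians was not tested. Chromosomes differed as well. On chromosome 18, 44.0% of coding genes fell and 14.3% rose, and on the GC-rich chromosome 19 16.7% fell and 25.2% rose. Within the lowest GC quintile 58.2% of 55 genes of chromosome 18 fell, against 37.1% of the others, and 12.6% of 87 genes of chromosome 19, against 38.4%. In the next quintile the shares were 44.9% against 31.5% for chromosome 18 and 10.8% against 32.6% for chromosome 19, and in the middle one 33.3% against 25.2% and 20.5% against 25.5%. Most genes of chromosome 19 lie in the upper quintiles, where the order turned, with falls in 24.3% of 222 genes against 20.5% in the fourth and in 14.5% of 490 against 13.7% in the highest. Chromosome 18 had few genes there, 12 in the fourth with falls in 16.7% against 20.9%, and 10 in the highest, of which 3 fell and 6 rose, against falls in 13.8% and rises in 29.9% of the others.

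**Figure D4:**
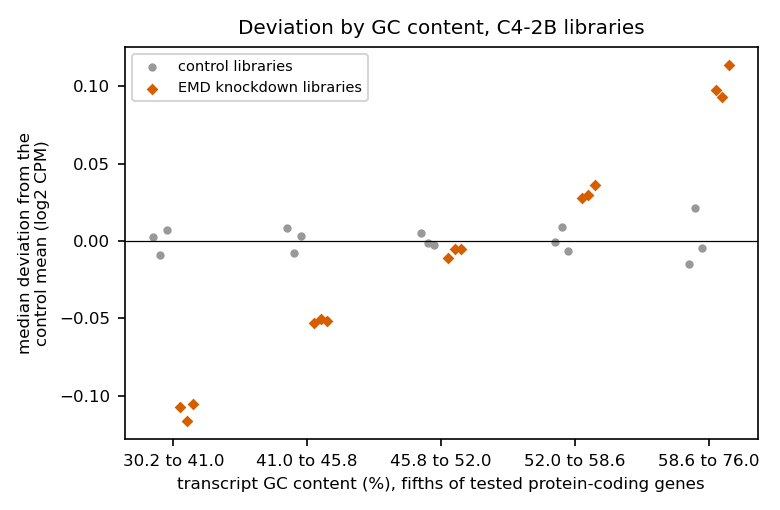
Median deviation from the control mean (log2 CPM) of tested protein-coding genes in each quintile of transcript GC content, for the 3 control libraries (grey circles) and the 3 knockdown libraries (orange diamonds) of C4-2B. Control libraries stay between -0.02 and 0.02 and the knockdown libraries climb from about -0.11 to 0.10.

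Genes with long non-coding transcripts rose more often than they fell. Of 625 tested lincRNA genes 17.4% rose and 6.24% fell (median 0.17), and of 821 antisense genes 11.3% and 4.63% (median 0.16), whereas of 12883 protein-coding genes 20.6% and 25.9% did (median -0.01). Strandedness of the libraries is not given in the sources used here, so reads of antisense genes and their partners cannot be told apart. Level went along with this. Genes between 0.5 and 2 CPM had a median of 0.19, and genes above 100 CPM one of -0.03, of which 39.5% fell and 25.3% rose.

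The response of C4-2B differed from that of the other 2 lines in many genes. In one fit over all 18 libraries and 17152 genes, the fold change of C4-2B differed from that of 22Rv1 for 56.1% of genes, higher for 29.1% and lower for 27.0%. From DU145 it differed for 45.7%, higher for 21.2% and lower for 24.5%. Line, table and batch label, and in DU145 possibly the knockdown agent, coincide in this series and cannot be told apart, and both differences use the same C4-2B libraries. The median of all tested differences was 0.06 against 22Rv1 and -0.02 against DU145.

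The cell division groups had much lower fold changes in C4-2B. Of 33 kinetochore genes 32 differed downward from 22Rv1 and 29 from DU145, and of 25 replication fork genes 25 and 23 did. The kinetochore median was -1.91 in C4-2B, 0.37 in 22Rv1 and 0.14 in DU145. Fold changes of p53 targets were higher in C4-2B for 30 of 37 compared with 22Rv1 and for 27 of 37 compared with DU145, and lower for 0 and 2. Their medians were 0.56, -0.41 and -0.12. Of the 45 respiratory chain genes 30 were lower than in 22Rv1 and 34 lower than in DU145.

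Fold changes of ribosomal proteins were higher in C4-2B than in 22Rv1 for 62 of 78 and lower for 0, with medians of 0.20 and -0.30. Against DU145, with a median of 0.24, they were higher for 11 and lower for 19. Of 15 matrix protease genes 10 were higher than in 22Rv1 and 1 lower, and 6 were higher than in DU145 and 1 lower. Nuclear pore genes differed downward from 22Rv1 in 27 of 30 cases and from DU145 in 17, with medians of -0.17, 0.29 and 0.14 in the 3 lines.

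**Figure D5:**
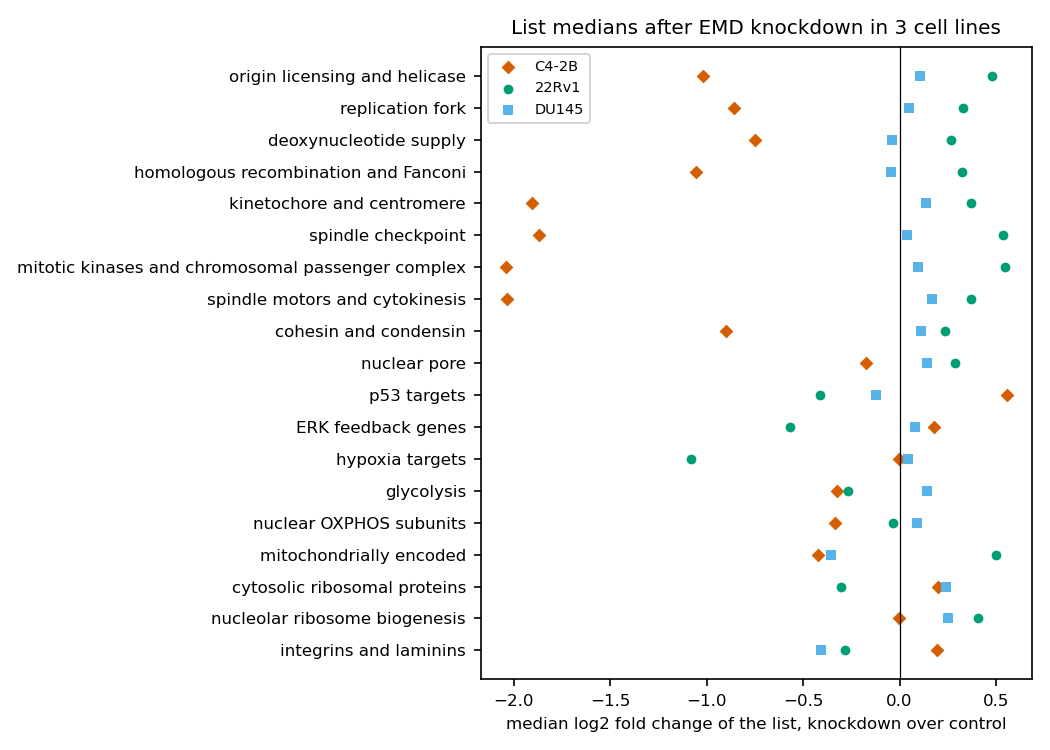
Median log2 fold change (knockdown over control) of 19 gene groups in C4-2B (orange diamonds), 22Rv1 (green circles) and DU145 (blue squares), each from the fit over 18 libraries. The 9 groups of replication, repair and mitosis at the top have medians between -2.04 and -0.75 in C4-2B and between -0.04 and 0.55 in the other lines.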

How the data were processed

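RNA of 6 C4-2B libraries was measured by RNA-seq, with 3 per group. Per the submitters' processing notes STAR, RSEM 1.3.1 and GRCh38 were used, and the deposited table holds RSEM expected counts per gene, which the authors gave as whole numbers. The annotation release, the strandedness and the rounding are not given in the sources used here. Genes were kept by filterByExpr in edgeR 4.0.16 under R 4.3.3 (at least 10 reads, and 15 over all libraries). After TMM scaling they were tested with the robust quasi-likelihood F test and Benjamini-Hochberg adjustment at 0.05. All values in CPM were computed here from these counts. Differences between lines came from 1 fit over 18 libraries and the 17152 genes that passed in it. The fits were tested on simulated data.

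The members and the gene lists were chosen with earlier results of these data known. Named genes were list members, the 15 largest rises and falls with at least 5 CPM in the higher group and no overlap, and the 10 largest gains and losses in CPM, from which examples were taken. Some lists and genes are not reported here. GENCODE 29 gave coordinates, gene types and GC content, and RefSeq (GRCh38.p14) gave promoters. Other scalings, filters, DESeq2 1.42.0, a replicate block and leaving out each library were tried.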

Additional observations from a re-analysis of the deposited data

Results flagged for a closer look

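Each gene below had a log2 fold change in C4-2B that differed from that in another line, by the interaction term of the fit over 18 libraries (edgeR's quasi-likelihood test with Benjamini-Hochberg adjustment over 17152 genes). Values are C4-2B less the other line, ± SE, with 3 libraries per group. The genes were chosen with their values known, line and batch label (and, in DU145, possibly the knockdown agent) cannot be told apart, and no explanation was tested.

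The knockdown itself was deeper than in 22Rv1, with EMD at -3.07 in C4-2B and -1.78 in 22Rv1, a difference of -1.29 ± 0.14 (adjusted p = 9.78e-09). Against DU145, at -3.20, it did not pass (0.13 ± 0.16, adjusted p = 0.537).

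CDC20, the activator of anaphase, fell in C4-2B and had fold changes of 1.06 in 22Rv1 and 0.57 in DU145. Its differences were -3.63 ± 0.11 and -3.14 ± 0.11. RRM2 differed by -2.96 ± 0.07 from 22Rv1 and by -2.56 ± 0.07 from DU145. CDKN1A, at 1.34 in C4-2B, had -0.90 in 22Rv1 and -1.42 in DU145, with differences of 2.24 ± 0.06 and 2.76 ± 0.07.

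HSPA6 parted most from 22Rv1, where its fold change was -3.15, by 8.03 ± 0.33, and from DU145 by 3.34 ± 0.37. DUSP4 differed by 3.13 ± 0.11 from 22Rv1 and by 5.91 ± 0.16 from DU145, where it had -3.36. IGFBP3 differed by -2.24 ± 0.07 and -3.65 ± 0.09. RUNX1 differed from DU145 by -2.71 ± 0.28 and did not pass against 22Rv1, where it had -3.36 (-0.05 ± 0.37, adjusted p = 0.915).

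FTH1 was apart from 22Rv1 by 1.26 ± 0.05 and from DU145 by -0.17 ± 0.05 (adjusted p = 0.00422). LAMA3 differed from 22Rv1 by -0.69 ± 0.23 (adjusted p = 0.015) and from DU145 by 0.31 ± 0.09 (adjusted p = 0.00492).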

How the results depend on the processing

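The numbers of genes that changed stayed within 1.5 times under every alternative run (edgeR unless named). Genes that rose numbered between 2518 and 2867 when 1 library was left out and genes that fell between 3099 and 3391, against 3068 and 3516. DESeq2 gave 3118 and 3640. Library totals gave 3871 and 2922, and 5990 of the 6584 changed genes changed under both scalings. Of 52 counts over lists, each of at least 5 members in the more frequent direction, 1 moved by more than 1.5 times: the members of the BCL2 family and caspases that fell went from 5 to 3 with library totals, and to between 3 and 4 when 1 library was left out. Of the 74 other counts (the less frequent direction, or fewer members) 33 moved by more than 1.5 times. Of these, 29 had under 5 members and moved by at most 3, and 4 had 5 or more, all of them rises: the unfolded protein response (10, lowest 6), nucleolar genes (5, between 3 and 9), Xq28 neighbours (5, lowest 3) and cholesterol synthesis (5, lowest 3).

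Of 2768 values of the 213 genes named, 28 lost and 4 gained a call and 0 changed direction once called. Of 220 values of differences between lines 1 lost its call, LAMA3 against 22Rv1 with library totals (-0.61, adjusted p = 0.0676). Whether the replicate numbers pair the libraries is uncertain. Deviations of same-numbered libraries correlated at -0.06, -0.03 and 0.13. These deviations are taken within groups of 3 libraries, so the correlations depend on each other. They cannot settle whether same-numbered libraries were handled together. With the replicate block 3078 genes rose and 3545 fell. Control 1 and control 2 correlated more with other knockdown numbers than with their own, and control 3 most with its own. How depth limits single values was not tested.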
